A study of Moricandia suffruticosa and Brassica napus with 23 samples.

Results

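Leaf messenger RNA of Brassica napus (oilseed rape) was compared between plants with water withheld and control plants, gene by gene and copy by copy. The members are the genes that reached 1 FPKM in 3 or more of the 6 libraries, 40580 of the 101040 genes in the table (40.2%). FPKM counts fragments per kilobase of a gene, here of its coding length, after scaling for the depth of the library. The third-highest of the 6 values lay between 1.00009 and 1.00447 FPKM for the 50 members just inside this limit and between 0.994 and 0.999953 FPKM for the 50 genes just outside it.

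All plants belonged to 1 coded material, and the labels give no cultivar name and no mutation or transgene. Growth in soil lasted 35 days under 16 h of light, at a temperature of 25 °C and a humidity of 60%. Plants of the drought group went without water for 3 days, and the labels call the control plants non-treated. The protocol text speaks of 1 replicate under drought, which was read as the drought group of 3 libraries. Each group had 3 libraries of polyadenylated RNA. Means below are given ± SD with n = 3, and log2 changes are given ± SE. Whether the libraries within a group stem from different plants or pools is not stated, so the p-values reflect only how far these libraries differ, and that spread may be technical. A set of 3 heat-treated leaf libraries entered only the estimate of spread, and 14 samples of Moricandia suffruticosa were not analysed here.

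As background, a plant that runs short of water makes the hormone abscisic acid (ABA), which closes stomata and switches on genes through bZIP factors that bind ABA-responsive elements. A parallel route through DREB factors acts on dehydration-responsive elements. Growth slows at the same time, which in leaves involves wall-loosening proteins and the growth hormones gibberellin, brassinosteroid, auxin and cytokinin. Brassica napus arose from a cross of a B. rapa-like parent (the A genome) and a B. oleracea-like parent (the C genome), and both parents descend from an ancestor with a triplicated genome. An Arabidopsis locus therefore often has several B. napus copies, and each copy is treated here as a gene of its own. Counts of copies below cover only tested copies, and a locus can have further copies that did not reach the limit of 1 FPKM. Roles given below are those known for the Arabidopsis locus that the table names as the best match.

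The 6 libraries held 12173804 to 12810483 assigned reads, and 1 read on a gene of 1 kb was worth 0.0781 to 0.0821 FPKM. Correlations of log2(FPKM + 1) over all members were 0.985 to 0.986 among control libraries, 0.985 to 0.986 among drought libraries and 0.876 to 0.879 between the groups. Leaf mesophyll markers (small Rubisco subunits, chlorophyll-binding proteins, carbonic anhydrase) summed to 90424 to 91912 FPKM in control libraries and 59920 to 61013 FPKM in drought libraries, and 22 of their 46 tested genes were called lower. The calls were uneven. They were copies of the chlorophyll-binding CAB1 (9 of 9), LHB1B1 (5 of 7) and LHCB2.1 (2 of 2), of RBCS1B (5 of 10) and of RCA (1 of 6). No copy of RBCS1A, GAPA, NPQ4 or the carbonic anhydrase CA1 was called. Phloem markers summed to 696 to 749 FPKM in control and 741 to 772 FPKM in drought, with 0 of 28 called. Xylem markers had 0 of 9 called, and guard cell markers had 1 of 19 called lower, at 88 to 92.8 FPKM in control and 67.1 to 78.8 FPKM in drought. Epidermis markers had 2 of 20 called lower and markers of dividing cells 2 of 18, at 89.1 to 101.7 FPKM in control and 73.9 to 80.7 FPKM in drought. Of the flower list, the 3 tested copies of MYB21 were called lower, and the list summed to 27 to 29.7 FPKM in control and 3.2 to 5.3 FPKM in drought. Root markers had 1 of 5 called lower, at 28.2 to 29.5 FPKM in control and 20.4 to 23 FPKM in drought, and 8 of the 11 seed marker loci in the table were at 0 in all 6 libraries. In whole-leaf RNA, fewer cells of a type and less of a marker's RNA per cell cannot be told apart. The part of these marker shifts in the results below was not tested.

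Under drought 2252 genes were called higher (5.55% of those tested) and 3018 lower (7.44%), so that 13.0% of the members were called in either direction. A call means an adjusted p under 0.05 in limma's moderated test and a change of 1 or more in size on the log2(FPKM + 1) scale, which all log2 changes below use and which understates the change of low genes. Changes ran from -6.62 to 9.03 around a median of -0.05. At least 4-fold changes on that scale were found for 622 higher and 692 lower genes. Genes called higher took up 4.67% of all FPKM in control leaves and 20.2% in drought leaves, and genes called lower took up 13.5% and 4.01%. The 3 drought libraries lay wholly above or wholly below the 3 control libraries for 57.1% of the members, so a lack of overlap alone sets few genes apart. Wherever values are given library by library below, the 2 groups did not overlap. For the largest rises and falls of each class this was a condition of being named. The plot of drought against control levels shows both sets of called genes at high and at low levels.

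**Figure D1:**
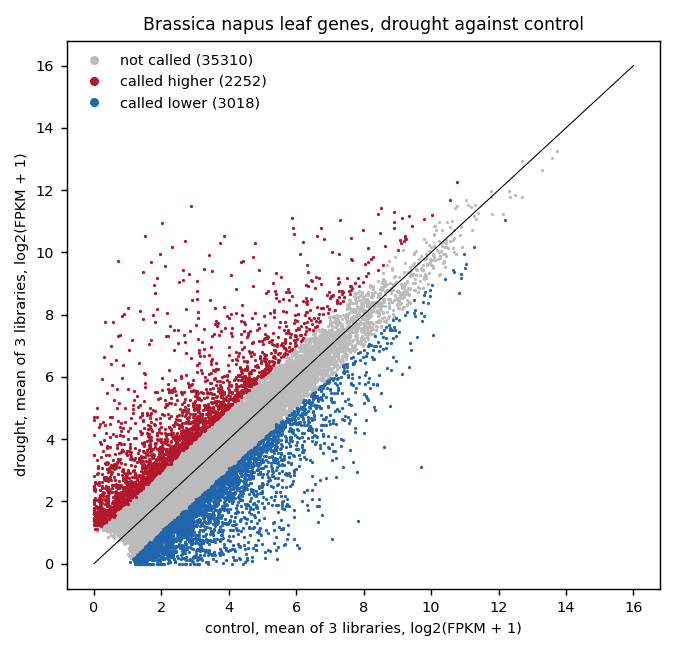
Mean log2(FPKM + 1) of each of the 40580 members in the 3 control libraries (x axis) and the 3 drought libraries (y axis). Red points are the 2252 genes called higher and blue points the 3018 called lower, and the line marks equal levels.

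Gene lists were drawn up by Arabidopsis locus for transcription factors, transport, cell wall, hormones and metabolism, and each is read here against the 5.55% called higher and 7.44% called lower over all tested genes. Over all 46 lists 144 members were called higher and 323 lower, and 12 lists had a median change above 0. The highest shares of higher genes were in the lists of dark and carbon-starvation markers (50%), DREB factors (38.1%), stress NAC factors (23.5%) and amino acid breakdown (23.4%). The highest shares of lower genes were in flavonoid synthesis (57.7%), expansins (53.5%), phosphate transport and starvation response (45.5%) and gibberellin synthesis and breakdown (45.5%).

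**Figure D2:**
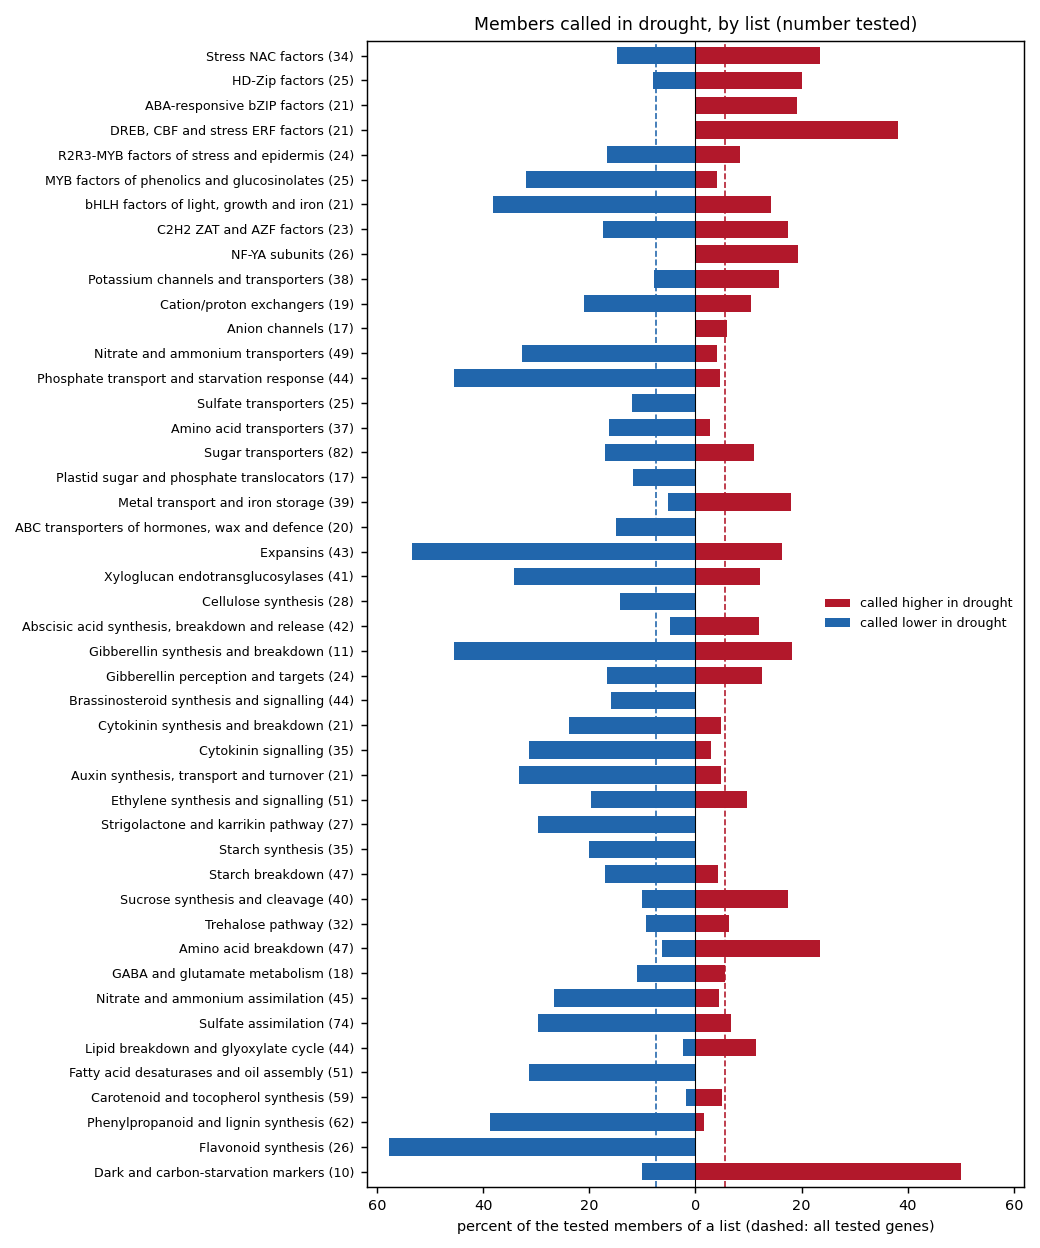
Percent of the tested members of each of 46 lists called higher (red, to the right) or lower (blue, to the left) in drought, with the number tested after each name. Dashed lines mark the shares over all tested genes, 5.55% higher and 7.44% lower, and the flavonoid and expansin bars reach farthest to the left while the DREB and NF-YA lists have no blue bar.

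Among the listed DREB-type factors the called genes were all higher. In the list of DREB, CBF and stress ERF factors, 8 of 21 tested genes were called higher and 0 lower (median log2 change over those tested 0.64). All 5 tested copies of DREB2A, an activator that binds dehydration-responsive elements, were called higher. The most strongly expressed copy in drought, BnaA10g25000D, went from 3.08 ± 0.697 to 26.8 ± 1.68 FPKM, a log2 change of 2.78 ± 0.13 (adjusted p = 1.3e-08). The copy BnaC02g36690D was listed at 0 in all 3 control libraries and at 9.63, 8.02 and 12.9 FPKM in the drought libraries (adjusted p = 1.3e-08). The other 3 copies averaged 0.0269 to 0.26 FPKM in control and 4.35 to 5.17 FPKM in drought. DDF1, a DREB-type factor linked to gibberellin breakdown under salt, had 2 of 5 copies called higher, led by BnaC08g15650D at 16.8, 18.5 and 20.5 FPKM in the control libraries and 47.6, 54.2 and 51.1 FPKM in the drought libraries (log2 change 1.41 ± 0.10, adjusted p = 4.3e-07). No library of this copy overlapped between the groups. RAP2.4 had 6 tested copies and none was called. The wider AP2/ERF family, grouped after the annotation was seen, had 20 higher (9.48%) and 44 lower (20.9%) of 211 tested genes.

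In the ABA-responsive bZIP list, 4 of 21 tested genes were called higher and 0 lower (median log2 change over those tested 0.62). ABF2, ABF3 and ABF4 encode factors that bind ABA-responsive elements. ABF3 copy BnaC07g44670D stood at 4.41, 5.7 and 4.72 FPKM in the control libraries and 12.9, 14.5 and 12.6 FPKM in the drought libraries, a log2 change of 1.28 ± 0.11 (adjusted p = 2.4e-06). A second ABF3 copy, BnaAnng26550D, was called as well, but its log2 change fell to 0.99 without control replicate 3. ABF4 copy BnaA03g35190D changed by 1.28 ± 0.14 and ABF2 copy BnaA10g28780D by 1.124 ± 0.14, both with an adjusted p no higher than 4.3e-05. Of 6 ABF4 copies 1 was called. Across the whole bZIP family 8 of 93 tested genes were called higher and 3 lower.

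HD-Zip factors ATHB7 and ATHB12, which ABA induces and which restrain growth, were called in 3 of 3 and 2 of 4 copies. The ATHB7 copy with the largest change, BnaC04g50970D, gave 1.6, 1.24 and 0.911 FPKM in the control libraries and 30.5, 26.7 and 32.8 FPKM in the drought libraries (log2 change 3.79 ± 0.14, adjusted p = 8.6e-10). The groups stood far apart in every library. Its sister copies BnaA05g01190D and BnaC04g00750D started higher and changed less, from 9.16 ± 0.465 to 45 ± 1.9 FPKM (log2 change 2.18) and from 5.57 ± 1.24 to 16.9 ± 0.754 FPKM (log2 change 1.46). HAT2, an auxin-induced HD-Zip factor, was called lower in 2 of 3 copies. NF-YA subunits, DNA-binding parts of the CCAAT-binding complex, included 5 higher and 0 lower genes of 26 tested, with a median change of 0.66. Both NF-YA7 copies and 2 of 6 NF-YA5 copies were among them. NF-YA5 copy BnaC06g10580D rose from 1.56, 0.882 and 0.999 FPKM to 9.75, 13.5 and 9.73 FPKM (log2 change 2.48 ± 0.19, adjusted p = 8.3e-07).

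NAC factors had a larger share of higher genes than all tested genes, and a slightly smaller share of lower genes. Of 130 tested genes with the NAC domain 21 were called higher (16.2%) and 8 lower (6.15%), against 5.55% and 7.44% over all tested genes. ANAC047, a NAC factor of leaf senescence and leaf movement, was higher in 3 of 3 copies, and its copy BnaAnng26200D stood at 2.97, 4 and 3.08 FPKM in the control libraries and 28.7, 34.6 and 31 FPKM in the drought libraries (log2 change 2.9 ± 0.18, adjusted p = 9.8e-08). RD26, a NAC factor that drought and ABA induce in Arabidopsis, was called lower in 3 of 4 copies here. Its copy BnaA03g48570D had 42.5, 45.9 and 42.1 FPKM in control and 7.64, 8.35 and 7.8 FPKM in drought (log2 change -2.32 ± 0.08, adjusted p = 1.1e-09). The copies BnaC07g40860D and BnaA01g16400D fell from 104 to 30.9 FPKM and from 59.7 to 21.8 FPKM, while BnaC01g19550D, at 40.03 to 25.2 FPKM, stayed within the fold limit (log2 change -0.65). ATAF1 and ORE1 each had 1 copy called higher, ANAC032 had 1 of 2 called lower, and ANAC019 had none of 3 called.

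C2H2 zinc-finger repressors split by locus. AZF1 and AZF2 are repressors that osmotic stress induces in Arabidopsis. AZF1 copy BnaC09g07240D rose from 0.562, 0.557 and 0.701 FPKM to 12.7, 12.4 and 11.2 FPKM (log2 change 3.03 ± 0.12, adjusted p = 2.2e-09). AZF2 was called in 1 of 6 copies, BnaC03g73930D, at 6.05, 7.16 and 5.94 FPKM in the control libraries and 46.6, 47.3 and 44.1 FPKM in the drought libraries (log2 change 2.67 ± 0.09, adjusted p = 4.1e-10), while its other 5 copies changed by -0.15 to 0.90. ZAT10, a repressor induced by many stresses, went the other way and was lower in 4 of 5 copies. Its copy BnaC05g21480D had 94.6, 98.3 and 105 FPKM in control and 30.1, 39.6 and 39.5 FPKM in drought (log2 change -1.43 ± 0.10, adjusted p = 3.1e-07).

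WRKY, bHLH and several growth-related families had more lower than higher genes. WRKY factors had 2 higher and 12 lower of 87 tested, and bHLH factors 9 higher and 32 lower of 164. WRKY40, a regulator of defence and ABA responses, was lower in 4 of 5 copies, with BnaAnng23990D going from 14.6, 17.2 and 13.8 FPKM to 0.47, 1.114 and 0.986 FPKM (log2 change -3.14 ± 0.17, adjusted p = 3.6e-08). MYB34, an activator of indole glucosinolate synthesis, was lower in 3 of 3 copies, and BnaAnng06630D stood at 29.6, 31 and 30.2 FPKM in the control libraries and 0.984, 1.41 and 0.341 FPKM in the drought libraries (log2 change -4.07 ± 0.17, adjusted p = 3.7e-09). BHLH92, a bHLH factor of osmotic stress responses, fell in 4 of 4 copies. Its copy BnaC07g17250D went from 33.8, 36 and 38.3 FPKM to 0.222, 0.437 and 0.317 FPKM, and BnaA06g36620D went from 32.9, 33.1 and 31.9 FPKM to 0, 0 and 0.437 FPKM. The bHLH gene of locus AT4G29930, BnaA03g49880D, had the largest fall among the transcription factors named by rule, from 55, 64.7 and 59.4 FPKM to 0.671, 0.662 and 0.852 FPKM (log2 change -5.13 ± 0.16, adjusted p = 3.2e-10). MYB44, a MYB factor of stomatal closure and stress, had 1 of 2 copies called, BnaC07g16030D, which fell from 71.9 ± 3.12 to 11.6 ± 0.982 FPKM. Members of the GRAS family had 0 higher and 6 lower of 57, the TCP family 0 and 5 of 40, and the SBP family 0 and 5 of 24. GATA factors had 7 higher and 1 lower of 64, in a family grouping added after the annotation was seen.

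Iron genes moved by locus, with every tested copy called the same way for bHLH38, FER1, FER3 and OPT3. bHLH38, which switches on iron uptake genes when iron is short, was lower in 6 of 6 copies, and BnaCnng57560D stood at 12.1, 10.02 and 11.6 FPKM in the control libraries and 0.109, 0 and 0.104 FPKM in the drought libraries (log2 change -3.51 ± 0.12, adjusted p = 5e-10). The ferritins FER1 and FER3 store iron in plastids, and all tested copies were called higher, 1 of FER1 and 4 of FER3. FER1 copy BnaA03g00260D had 7.52, 10.5 and 7.91 FPKM in control and 672, 681 and 745 FPKM in drought (log2 change 6.19 ± 0.12, adjusted p = 4.7e-12). FER3 copies ranged from BnaA07g16710D, which rose from 2.73 to 7.87 FPKM, to BnaC08g27000D, which rose from 4.93 to 64.2 FPKM. OPT3, which loads iron into the phloem, was lower in both copies, and BnaA08g05990D fell from 113 ± 1.67 to 13.5 ± 1.64 FPKM. IRT3, a zinc and iron importer, had 1 of 4 copies called, BnaCnng11880D, which rose from 0.775 ± 0.118 to 11.5 ± 0.103 FPKM. The remaining loci of the metal list added 1 called gene, a copy of the vacuolar zinc transporter MTP1 that was higher.

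Transporters of nitrate and phosphate were called lower far more often than higher. Among the nitrate and ammonium transporters, 2 of 49 tested genes were called higher and 16 lower (median log2 change over those tested -0.72). NRT2.7, a vacuolar nitrate transporter, was lower in both copies, and BnaA02g02200D went from 208, 204 and 200.2 FPKM to 9.26, 7.3 and 9.09 FPKM (log2 change -4.43 ± 0.08, adjusted p = 4.3e-12). NRT1.1, the dual-affinity nitrate transporter and sensor, was lower in 4 of 6 copies, with BnaC08g15370D at 71.2, 72.8 and 69.4 FPKM in the control libraries and 16.6, 18.1 and 17.1 FPKM in the drought libraries (log2 change -1.98 ± 0.05, adjusted p = 8e-11). The glucosinolate carriers GTR1 and GTR2, which belong to the same protein family, were each lower in 2 of 5 copies. NRT2.5, a high-affinity nitrate transporter of nitrogen-starved plants, had 1 tested copy and it was called higher, as was 1 of 4 copies of NRT1.5.

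In the phosphate list, 2 of 44 tested genes were called higher and 20 lower (median log2 change over those tested -0.83). PS2, a pyrophosphatase induced by phosphate shortage, was lower in 3 of 3 copies, and BnaC06g43820D fell from 137, 150.3 and 138 FPKM to 30.1, 28.6 and 28 FPKM (log2 change -2.25 ± 0.07, adjusted p = 1.9e-10). The sulfolipid synthesis genes SQD1 and SQD2, whose product stands in for phospholipids when phosphate is scarce, were lower in 2 of 4 and 3 of 4 copies, and the phosphate exporter PHO1;H1 in 3 of 3. The phosphate transporter PHT1;5, which moves phosphate out of source leaves, was the only locus of the list with copies called higher. Both of its copies rose, with BnaC03g18410D at 4.22, 3.85 and 4.22 FPKM in the control libraries and 17.1, 17.1 and 17.6 FPKM in the drought libraries (log2 change 1.84 ± 0.08, adjusted p = 7.3e-09). SPX1, a marker of phosphate shortage, had 3 tested copies and none was called. Sulfate transporters had 0 higher and 3 lower of 25, among them both copies of SULTR2;2. Amino acid transporters had 1 higher and 6 lower of 37, and the proline carrier PROT1 copy BnaC03g22280D fell from 49.4 ± 3.03 to 6.38 ± 0.377 FPKM.

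Potassium channels and transporters had 6 higher and 3 lower of 38, with a median change of -0.11. Counted without the fold limit the list had 9 higher and 16 lower genes, so its balance depends on that limit. KUP6, a potassium transporter of guard cells and roots that ABA signalling activates, was higher in 3 of 5 copies. Its copy BnaA02g14820D stood at 13.6, 12.9 and 13.6 FPKM in the control libraries and 64.6, 65.1 and 61.1 FPKM in the drought libraries (log2 change 2.17 ± 0.07, adjusted p = 3.5e-10), and the neighbouring gene model BnaA02g14810D rose from 7.46 to 28.8 FPKM. GORK, the potassium efflux channel of guard cells, was higher in 2 of 3 copies, and BnaA07g03930D rose from 3.39 ± 0.0981 to 9.04 ± 0.0885 FPKM. AKT1, a potassium uptake channel known from roots, had 2 tested copies that differed. BnaC04g37620D had 81, 81.7 and 79.6 FPKM in control and 2.35, 2.54 and 2.09 FPKM in drought (log2 change -4.62 ± 0.13, adjusted p = 1.3e-10), the largest fall among the transporters named by rule, while BnaA04g14740D, at 3.09 to 1.17 FPKM, was not called. The calcium exchangers of the vacuole also split, with CAX1 copy BnaA05g06490D falling from 18 ± 0.371 to 2.7 ± 0.373 FPKM and CAX3 copy BnaA03g41510D rising from 12.3 ± 1.09 to 43.9 ± 1.62 FPKM. The anion channels had 1 call in 17 tested genes, a CLC-A copy whose log2 change was 0.99 without control replicate 2 and 0.996 without drought replicate 1. Guard-cell SLAC1 had none of 2 called, and SLAH3 copy BnaC09g04620D, at 18.5 to 30.8 FPKM, stayed under the fold limit.

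Sugar carriers held the largest rise among the transporters named by rule. SWEET15, a sucrose exporter switched on in ageing leaves and seeds, was higher in 4 of 5 copies. BnaC02g04530D stood at 0.0881, 0.0873 and 0.528 FPKM in the control libraries and 95.1, 94.5 and 105 FPKM in the drought libraries (log2 change 6.35 ± 0.18, adjusted p = 1.1e-10), and BnaA10g20120D, already at 41.3, 40.6 and 41.2 FPKM in control, reached 411, 406 and 405 FPKM (log2 change 3.28 ± 0.05). No drought value overlapped a control value in either copy. BnaC09g43920D rose from 11.7 to 213 FPKM and BnaA02g01450D from 0.614 to 48 FPKM, while BnaA03g04230D, at 3.04 to 6.94 FPKM, fell just short of the fold limit. SWEET11 and SWEET12, the phloem-loading exporters, had 5 tested copies each and none was called. SWEET1, a glucose exporter, was lower in 3 of 4 copies, and the sucrose importer SUC1 in 4 of 5. INT1, which exports inositol from the vacuole, rose in 2 of 4 copies, among them BnaC04g02870D from 1.68 ± 0.301 to 26.5 ± 0.506 FPKM, while BnaA04g25030D, at 18.4 to 11.9 FPKM, was not called. GPT2, the glucose-6-phosphate carrier of the plastid envelope, was lower in 2 of 3 copies, with BnaC01g29930D at 52.5, 50.7 and 51 FPKM in the control libraries and 3.6, 2.93 and 3.16 FPKM in the drought libraries (log2 change -3.63 ± 0.08, adjusted p = 1.4e-11). Over the full list of sugar transporters 9 were higher and 14 lower of 82.

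**Figure D3:**
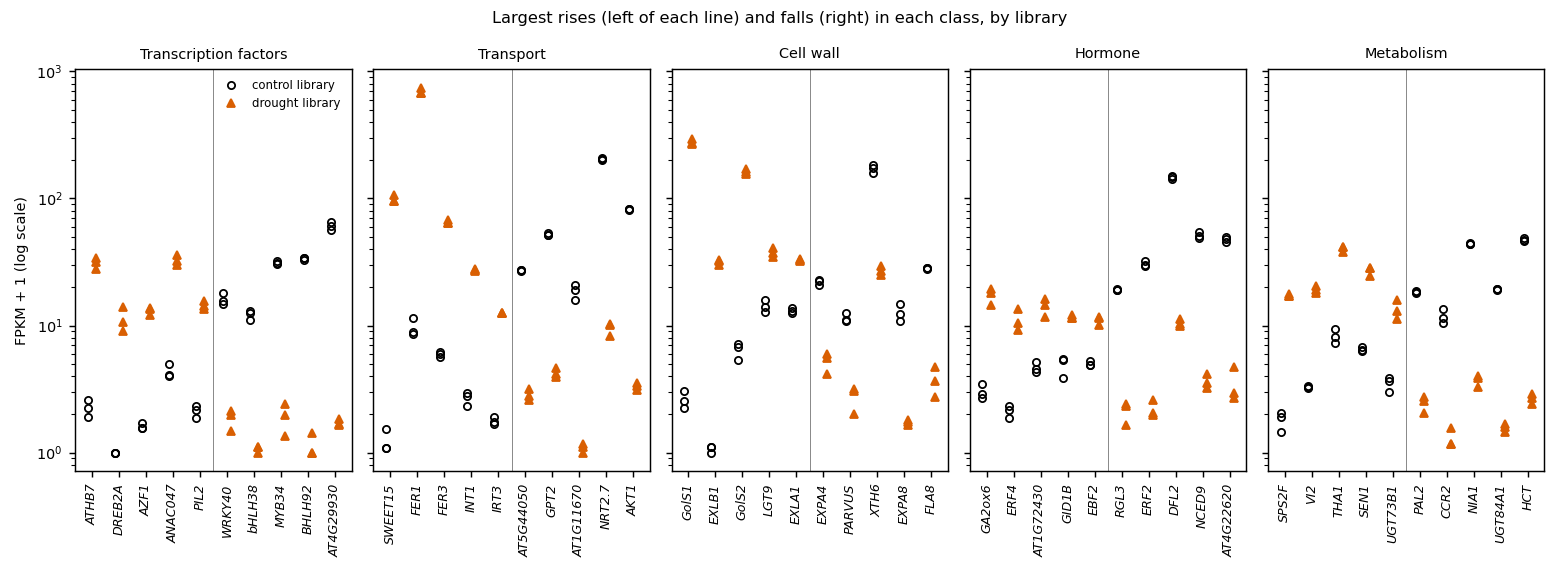
FPKM + 1 on a log scale in each of the 3 control libraries (circles) and 3 drought libraries (triangles) for the 5 largest rises (left of the grey line) and 5 largest falls (right of it) named by rule in each class. The rule took only genes whose 2 groups did not overlap, so the gap between the groups in these 50 genes follows from the choice. SWEET15 and FER1 show the widest upward gaps among transporters and AKT1 the widest downward gap.

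The cell wall lists drawn up by locus had more lower than higher genes, and most of the higher expansins were expansin-like genes. Among the expansins, which loosen walls during cell growth, 7 of 43 tested genes were called higher and 23 lower (median log2 change over those tested -1.13). The lower genes were alpha-expansins and the beta-expansin EXPB3. EXPA1, EXPB3 and EXPA3 fell in each of their tested copies (3, 3 and 2), EXPA5 in 4 of 5 and EXPA4 in 4 of 6. EXPA8 copy BnaA05g01790D went from 9.77, 11.3 and 13.7 FPKM to 0.637, 0.733 and 0.809 FPKM (log2 change -2.86 ± 0.13, adjusted p = 8.5e-09). The 7 higher genes comprised 4 copies of EXLB1, 2 of EXLA1 and 1 of EXPA16, and EXLB1 and EXLA1 are expansin-like genes for which wall loosening has not been shown. EXLB1 copy BnaC01g21280D stood at 0.105, 0 and 0.104 FPKM in the control libraries and 28.9, 31.9 and 31.5 FPKM in the drought libraries (log2 change 4.89 ± 0.18, adjusted p = 1.3e-09). The copy BnaA03g58070D was listed at 0 in all 3 control libraries and at 13.4, 18.1 and 18.4 FPKM in the drought libraries (adjusted p = 2.6e-09). The other 2 copies, BnaA01g18000D and BnaC07g34020D, rose from 0.139 to 3.63 FPKM and from 0.487 to 7.73 FPKM.

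Xyloglucan endotransglucosylases, which cut and rejoin the xyloglucan that ties cellulose together, had 5 higher and 14 lower of 41. XTH6 was lower in both copies, and BnaA06g24680D fell from 159, 174 and 183 FPKM to 28.2, 25.8 and 24.2 FPKM (log2 change -2.68 ± 0.09, adjusted p = 3.4e-10). XTH32 was lower in 3 of 3 copies and XTH9 in 4 of 4, but the change of XTH9 copy BnaA09g01390D was -0.99 without control replicate 1 or drought replicate 2. XTH31 copy BnaA06g18630D went up instead, from 16.8 ± 0.161 to 40.2 ± 1.23 FPKM. Cellulose synthesis had 0 higher and 4 lower of 28, all of them copies of the primary-wall synthase CESA3 or of COB, which orients cellulose. One of the 2 CESA3 calls, BnaA03g55200D, was lost without control replicate 1 or drought replicate 3, each giving -0.99. The secondary-wall synthases CESA4 and CESA7 had 3 tested copies and none was called. Fasciclin-domain surface proteins had 1 higher and 15 lower of 37, among them FLA8 copy BnaA05g04890D, which fell from 27.1 ± 0.285 to 2.69 ± 0.972 FPKM (log2 change -2.96 ± 0.17, adjusted p = 5.4e-08). PARVUS, a glycosyltransferase of xylan synthesis, was lower in 3 of 4 copies. Glycosyl transferase family 8 had 8 higher and 6 lower of 77, though without the fold limit 15 were higher and 18 lower. LGT9, a sugar transferase named in this class by rule, had 1 of 4 copies called. That copy, BnaA07g09060D, rose from 13.3 ± 1.57 to 36.6 ± 3.14 FPKM. Pectin methylesterases, grouped after the annotation was seen, had 8 higher and 20 lower of 48. Pectin lyase fold proteins, grouped in the same way, had 7 higher and 7 lower of 44. The named-gene rule also placed galactinol synthases GolS1 and GolS2 in this class through the glycosyl transferase 8 domain they carry. They make a precursor of raffinose rather than wall polymers, and GolS2 copy BnaCnng63310D rose from 5.4 ± 0.915 to 162 ± 6.99 FPKM.

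Copies of 2 genes that inactivate abscisic acid rose, both tested copies of the synthesis gene NCED9 fell, and most other synthesis genes were not called. In the ABA list, 5 of 42 tested genes were called higher and 2 lower (median log2 change over those tested -0.11). All 5 higher genes were copies of CYP707A3 and CYP707A4, 8'-hydroxylases that break the hormone down. The related CYP707A1 and CYP707A2 had 1 and 4 tested copies, and none was called (log2 changes of 0.23, and of -0.39 to 0.78). CYP707A4 was higher in 3 of 3 copies, and BnaC05g33590D stood at 0.266, 0.211 and 0.424 FPKM in the control libraries and 6.82, 7.82 and 7.23 FPKM in the drought libraries (log2 change 2.67 ± 0.15, adjusted p = 4.7e-08). Both CYP707A3 copies were called, but BnaA09g17560D changed by 0.96 without control replicate 1 and by 0.92 without drought replicate 2. The 2 lower genes were the copies of NCED9, which encodes a 9-cis-epoxycarotenoid dioxygenase of hormone synthesis. BnaC06g38870D stood at 49.3, 48.2 and 53.8 FPKM in the control libraries and 3.18, 2.24 and 2.51 FPKM in the drought libraries (log2 change -3.83 ± 0.11, adjusted p = 1.1e-10), and the log2 change of BnaA07g39250D was -3.59. NCED3, the synthesis enzyme that drought induces in Arabidopsis, had 6 tested copies and none was called, and neither did any copy of ABA1, ABA2, ABA3 or AAO3 pass. Counted without the fold limit the list had 12 higher and 14 lower genes.

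Gibberellin genes moved in both directions. In the synthesis and breakdown list, 2 of 11 tested genes were called higher and 5 lower (median log2 change over those tested -0.83). GA2ox6, an enzyme that inactivates gibberellin, rose in both copies. Its copy BnaC05g01200D stood at 1.91, 2.44 and 1.67 FPKM in the control libraries and 13.6, 17.2 and 18.5 FPKM in the drought libraries (log2 change 2.53 ± 0.14, adjusted p = 4.9e-08), and BnaA10g01100D rose from 4.7 ± 0.386 to 26.7 ± 0.0287 FPKM. The lower genes were 1 copy each of the synthesis enzymes GA20ox1 and GA20ox2, 2 of KAO2 and 1 of GA2ox2, another inactivating enzyme. The KAO2 copy BnaC04g12350D was not called without control replicate 1 (-0.94), control replicate 2 (-0.91) or drought replicate 2 (-0.96). With a limit of 5 FPKM in place of 1 the list kept 4 tested genes, 2 higher and 0 lower, so its direction turns with that limit. RGL3, a DELLA repressor of gibberellin responses, fell in both copies, and BnaA10g17240D went from 18.1, 18.3 and 18.1 FPKM to 1.34, 0.634 and 1.43 FPKM (log2 change -3.19 ± 0.16, adjusted p = 1.4e-08).

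Auxin, brassinosteroid, cytokinin and strigolactone lists had more lower than higher genes. DAO1, which oxidises auxin, fell in both copies, and BnaA08g24080D stood at 79.9, 76 and 77 FPKM in the control libraries and 8.24, 9.59 and 10.3 FPKM in the drought libraries (log2 change -2.93 ± 0.08, adjusted p = 6.8e-11). DFL2, a GH3 family gene named for short hypocotyls when overexpressed, fell in both copies too, from 145 to 9.43 FPKM for BnaA09g01540D and from 159.7 to 12.7 FPKM for BnaC09g00690D. The auxin list as a whole had 1 higher and 7 lower of 21, and the higher gene was a copy of the auxin-conjugating enzyme GH3.5. SAUR genes, many of them auxin-responsive, had 6 higher and 8 lower of 52, a balance that turned under a limit of 5 FPKM (4 higher and 2 lower of 18). The SAUR gene of locus AT4G22620, BnaA01g12340D, fell from 46.6 ± 2.2 to 2.45 ± 1.09 FPKM, and that of AT1G72430, BnaC06g24340D, rose from 3.66 ± 0.441 to 13 ± 2.29 FPKM.

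The brassinosteroid list had 0 higher and 7 lower of 44, and the 7 were copies of the receptor BRI1 and the synthesis enzyme DWF1. BRI1 was called in 4 of 5 copies with log2 changes of -1.02 to -1.18, close to the limit. BnaC07g47240D changed by -0.9996 without control replicate 2 and by -0.997 without drought replicate 3, and BnaC03g60590D by -0.99 and -0.96 without control replicate 1 and drought replicate 3, each losing the call. Cytokinin signalling had 1 higher and 11 lower of 35. The response regulator ARR7, which cytokinin induces and which damps its signal, fell in 3 of 3 copies, with BnaC08g18570D at 2.96, 3.42 and 3.44 FPKM in the control libraries and 0.643, 0.254 and 0.122 FPKM in the drought libraries (log2 change -1.69 ± 0.18, adjusted p = 1.1e-05). The receptor AHK4 fell in both copies. CKX6, a cytokinin oxidase that breaks the hormone down, fell in both copies, and BnaC08g32840D went from 14.6 ± 0.499 to 2.18 ± 0.631 FPKM. Strigolactone and karrikin genes had 0 higher and 8 lower of 27, among them both copies of the repressor SMXL7.

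Ethylene response factors differed by locus. ERF2, an activator of defence genes, was lower in 6 of 6 copies, and ERF1A in 3 of 4, of which BnaAnng21280D changed by -0.97 without drought replicate 2. ERF2 copy BnaC07g20040D stood at 28.3, 31.3 and 28.8 FPKM in the control libraries and 0.982, 1.57 and 1.05 FPKM in the drought libraries (log2 change -3.8 ± 0.11, adjusted p = 1.6e-10), and the weakest of the 6 changes was -1.30. ERF4, a repressor of the same family, was higher in 4 of 9 copies and lower in none. Its copy BnaC06g41440D went from 1.32, 1.16 and 0.878 FPKM to 9.48, 8.3 and 12.4 FPKM (log2 change 2.37 ± 0.18, adjusted p = 5.5e-07). The ERF4 copy with the highest control level, BnaA03g33790D, was not called at 71.5 to 84.7 FPKM. The ethylene receptors ETR1, ERS1 and EIN4 and the regulators CTR1, EIN2 and EIN3 had no called copy.

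Among the metabolic lists amino acid breakdown had more higher than lower genes. In that list, 11 of 47 tested genes were called higher and 3 lower (median log2 change over those tested 0.50). LKR/SDH, the enzyme that starts lysine breakdown, rose in both copies, and BnaA01g03680D stood at 6.17, 5.79 and 6.01 FPKM in the control libraries and 25.9, 24.8 and 24.1 FPKM in the drought libraries (log2 change 1.89 ± 0.08, adjusted p = 2.2e-09). The values of the groups were far apart in each library. Both copies of the tyrosine aminotransferase TAT7 and of MGL, which splits methionine, were called higher, as were 2 of 4 copies of threonine aldolase THA1. THA1 copy BnaA06g05000D rose from 7.27 ± 1.13 to 39.4 ± 2.28 FPKM. Subunits of the branched-chain pathway beyond the first steps, IVD, MCCA and MCCB, had 8 tested copies and none was called. The 3 lower genes were copies of the proline dehydrogenases PRODH1 and PRODH2.

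Sucrose genes had 7 higher and 4 lower of 40, though without the fold limit 12 were higher and 22 lower. SPS2F, a sucrose phosphate synthase, rose in 2 of 3 copies, and BnaC07g29460D stood at 1.06, 0.457 and 0.893 FPKM in the control libraries and 16.8, 15.9 and 16.2 FPKM in the drought libraries (log2 change 3.28 ± 0.13, adjusted p = 3.1e-09). The third copy, BnaA03g03230D, started at a higher level and was not called at 10.4 to 17.5 FPKM. The sucrose-cleaving enzymes split by locus. SUS3, a sucrose synthase, rose in both copies, the vacuolar invertase VI1 fell in both, and its relative VI2 rose in 2 of 4. VI2 copy BnaC05g09640D rose from 2.29 ± 0.0539 to 18.2 ± 1.33 FPKM, while the most abundant copy, BnaC08g41390D, was not called at 232 to 271 FPKM.

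Starch genes were called lower more often than higher in both synthesis and breakdown. Synthesis had 0 higher and 7 lower of 35, and breakdown 2 higher and 8 lower of 47. The granule-bound synthase GBSS1, which makes amylose, was lower in 3 of 3 copies, and BnaC05g28320D stood at 365, 372 and 366 FPKM in the control libraries and 171, 175 and 161 FPKM in the drought libraries (log2 change -1.119 ± 0.04, adjusted p = 1.4e-09). APS1, the small subunit of the enzyme that makes ADP-glucose for starch, was lower in the 2 copies with the higher control levels. BnaA07g04740D fell from 55.4 to 10.7 FPKM and BnaCnng00430D from 45.3 to 10.6 FPKM, while BnaA06g30310D and BnaCnng59960D, at 9.04 to 7.26 FPKM and 7.8 to 5.73 FPKM, were not called. The cytosolic glucan phosphorylase PHS2 fell in both copies, and BAM9, a beta-amylase without catalytic activity, rose in 2 of 3. Of the dark and carbon-starvation markers 5 of 10 were higher and 1 lower. SEN1, a marker of darkness and senescence, rose in both copies, and BnaA01g01780D went from 5.74, 5.26 and 5.44 FPKM to 23.3, 27.2 and 27.5 FPKM (log2 change 2.06 ± 0.09, adjusted p = 3.6e-09).

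Nitrogen and sulfur assimilation had more lower than higher genes. Nitrate and ammonium assimilation had 2 higher and 12 lower of 45. The nitrate reductase NIA1, the first enzyme of nitrate use, was lower in 6 of 7 copies, with BnaC06g20690D at 44, 42.9 and 42.7 FPKM in the control libraries and 3, 2.87 and 2.26 FPKM in the drought libraries (log2 change -3.58 ± 0.10, adjusted p = 1e-10). The most abundant copy, BnaC06g38300D, fell from 276 ± 5.42 to 126 ± 3.93 FPKM. One of the 6 calls, BnaA07g33690D, was lost without control replicate 1 (-0.95) or drought replicate 1 (-0.93). ASN2, an asparagine synthetase, fell in both copies. Sulfate assimilation had 5 higher and 22 lower of 74. APK2, a kinase that prepares sulfate for transfer to glucosinolates and other products, was lower in 4 of 4 copies, and BnaA01g34620D fell from 79, 85.5 and 88.4 FPKM to 20.2, 19.4 and 21.8 FPKM (log2 change -1.99 ± 0.06, adjusted p = 3.2e-10). GSH2, which completes glutathione, was lower in 4 of 6 copies, and sulfite reductase SIR had 6 tested copies and none was called.

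The phenylpropanoid and flavonoid lists had more lower than higher genes. In the phenylpropanoid and lignin list, 1 of 62 tested genes were called higher and 24 lower (median log2 change over those tested -0.68), and in the flavonoid list, 0 of 26 tested genes were called higher and 15 lower (median log2 change over those tested -1.23). PAL1 and PAL2 encode phenylalanine ammonia-lyase, which opens the pathway, and all of their 10 tested copies were called lower. PAL4, another phenylalanine ammonia-lyase, had 2 tested copies and none called, with log2 changes of -0.27 and 0.4. PAL2 copy BnaC06g14510D stood at 17.8, 17 and 17.4 FPKM in the control libraries and 1.04, 1.54 and 1.73 FPKM in the drought libraries (log2 change -2.93 ± 0.15, adjusted p = 2.6e-08). The PAL1 copy BnaA05g07370D was not called without drought replicate 3 (-0.98). CCR2, a cinnamoyl-CoA reductase linked to defence, was lower in 4 of 4 copies, while its paralog CCR1, linked to lignin, had 4 tested copies and none called. HCT, which feeds lignin precursors, split by copy. BnaA01g18180D fell from 45.9, 47.5 and 45.1 FPKM to 1.91, 1.7 and 1.4 FPKM (log2 change -4.15 ± 0.10, adjusted p = 2.8e-11), whereas BnaA07g00390D and BnaC07g00330D were not called, with log2 changes of -0.41 and -0.29.

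In the flavonoid branch the entry enzyme chalcone synthase, TT4, was lower in 5 of 6 copies. Its most abundant copy, BnaC02g05070D, fell from 304 ± 9.52 to 99.2 ± 2.07 FPKM (log2 change -1.6 ± 0.13, adjusted p = 9e-07), and BnaC02g37270D, at 11.7 to 20.5 FPKM, stayed under the fold limit. LDOX, an enzyme of anthocyanin synthesis, was lower in 3 of 3 copies. Flavonol synthase FLS1 was lower in 3 of 5, and its copy BnaA06g16790D had 2.57, 3.4 and 2.57 FPKM in control and was listed at 0 in all 3 drought libraries (adjusted p = 4.8e-07). UGT84A1, a glucosyltransferase of hydroxycinnamates, fell in both copies, from 18.3 to 0.565 FPKM for BnaC07g33030D and from 18 to 4.78 FPKM for BnaA03g41940D.

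Desaturase and oil genes were called lower only, and fatty acid breakdown had more higher than lower genes. The desaturase and oil list had 0 higher and 16 lower of 51. FAD7, a plastid desaturase that makes trienoic fatty acids, was lower in 2 of 4 copies, and BnaC05g42010D stood at 142, 149 and 143 FPKM in the control libraries and 21.3, 23 and 19.2 FPKM in the drought libraries (log2 change -2.72 ± 0.07, adjusted p = 4.3e-11). RD20, a caleosin of oil bodies that drought and ABA induce in Arabidopsis, was lower in 3 of 6 copies here and higher in none. RD20 copy BnaC03g18600D fell from 335, 356 and 352 FPKM to 64.8, 65.6 and 68.7 FPKM (log2 change -2.37 ± 0.04, adjusted p = 3.4e-12), while BnaA05g10200D stood at 68.8 to 73.7 FPKM. Lipid breakdown had 5 higher and 1 lower of 44. ACX2, an acyl-CoA oxidase of long-chain fatty acids, rose in 2 of 4 copies, and BnaC09g06780D went from 6.38 ± 0.668 to 21.9 ± 1.66 FPKM. Carotenoid and tocopherol synthesis had 3 higher and 1 lower of 59, a share of calls below that of all genes in both directions, and phytoene synthase PSY copy BnaC09g40730D rose from 102 ± 1.41 to 257 ± 4.84 FPKM.

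Copies of one locus were then compared side by side. Of 11778 loci with at least 2 tested copies, 9131 (77.5%) had no called copy and 1926 (16.4%) had some but not all copies called, in 1 direction. Every tested copy was called higher at 272 loci and lower at 357, together 5.34% of the loci. Copies under the limit of 1 FPKM are not counted, so these numbers depend partly on that limit. Of all genes called higher, 536 averaged under 1 FPKM in control, and of those called lower 895 averaged under 1 FPKM in drought. Such genes passed the limit mainly through the group in which they were high. Copies were called in opposite directions at 92 loci (0.781%). Pairs with 1 A-genome and 1 C-genome copy per locus numbered 5536, and their log2 changes correlated with r = 0.779 across pairs, which share the libraries and are not independent replicates. Both copies were called the same way in 419 pairs, 1 copy in 484 and opposite ways in 6. Among the 2532 pairs with both copies at 5 FPKM or more, r was 0.861. The handling of reads that match several near-identical copies is not given in the sources used here, nor is strand use, so a difference between close copies carries that uncertainty.

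**Figure D4:**
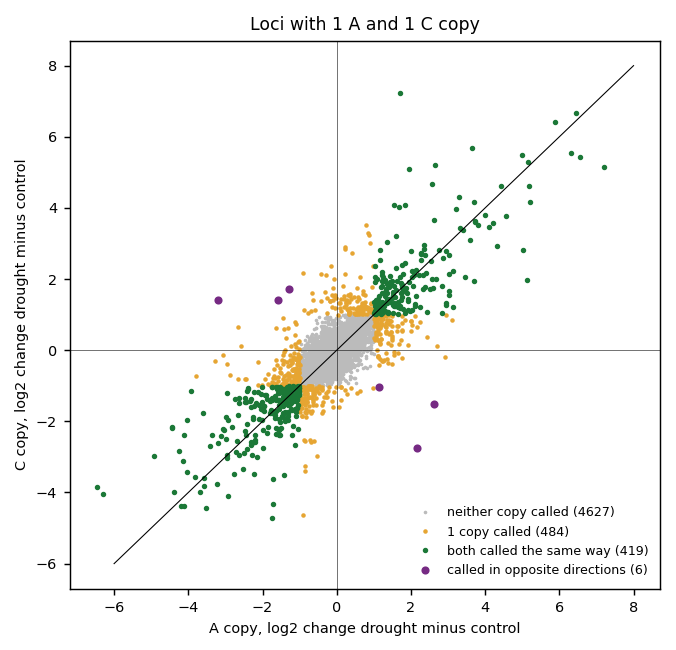
Log2 change, drought against control, on the log2(FPKM + 1) scale, of the A-genome copy (x axis) and the C-genome copy (y axis) at the 5536 loci with 1 tested copy of each. Most pairs lie along the diagonal, and in 6 pairs the copies were called in opposite directions.

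Loci at which all of at least 4 tested copies moved together included genes outside the lists. The named-gene rule leaves heat-shock and jasmonate genes out here. BI1, a suppressor of cell death in the endoplasmic reticulum, was higher in 4 of 4 copies, and the most abundant, BnaC02g33230D, stood at 73.1, 80.3 and 83.8 FPKM in the control libraries and 751, 755 and 806 FPKM in the drought libraries (log2 change 3.27 ± 0.05, adjusted p = 1.7e-12). The other copies rose from means of 17.7 to 45.4 FPKM to means of 265 to 653 FPKM. The gene of locus AT1G67360, described in the table as a rubber elongation factor protein and known in Arabidopsis as a lipid droplet protein, rose in 4 of 4 copies, among them BnaC06g26780D from 9.92 ± 0.888 to 355 ± 21.5 FPKM. COR15B, a cold-regulated plastid protein, and NSP5, a nitrile specifier protein of glucosinolate breakdown, also rose in 4 of 4. COR15B copy BnaC03g23770D went from 7.72 ± 2.54 to 114 ± 23 FPKM and NSP5 copy BnaC02g38400D from 4.59 ± 0.635 to 135 ± 3.33 FPKM. All 4 copies at AT3G56360, a locus without a description in the table, fell, and BnaA09g35810D went from 255 ± 4.64 to 17.4 ± 2.59 FPKM.

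At 10 of the 465 listed loci with at least 2 tested copies, copies were called in opposite directions. SWEET2, a vacuolar sugar transporter, had BnaC05g38830D at 91.4, 97.9 and 99.4 FPKM in the control libraries and 15.4, 15 and 16.4 FPKM in the drought libraries (log2 change -2.55 ± 0.08, adjusted p = 4.6e-10). Its copies BnaA01g29190D and BnaC01g36600D went the other way, from 7.98 ± 0.24 to 37.2 ± 1.2 FPKM and from 4.12 ± 0.629 to 20.9 ± 2.4 FPKM. The drought values of the falling copy lay below, and those of the rising copies above, all control values. GLN1;4, a cytosolic glutamine synthetase, had its most abundant copy BnaA02g03140D fall from 206 to 83.8 FPKM while BnaC09g41340D rose from 12.8 to 41.7 FPKM and BnaA10g17910D from 3.79 to 9.48 FPKM. GID1B, a gibberellin receptor, rose in BnaCnng55170D and BnaA09g55590D and fell in BnaCnng69280D, from 3.91 to 0.723 FPKM. ANAC102, a NAC factor, rose in BnaA02g33910D from 42.6 to 91.4 FPKM and fell in BnaC03g50570D from 19 to 7.51 FPKM. C4H, the hydroxylase that follows PAL, fell in 3 of 9 copies and rose in BnaA04g17560D from 13.7 to 30.2 FPKM. Copies of a locus share only a best match. Identity to it was 89.3% for the rising C4H copy and 89.8 to 96.03% for the falling ones. For SWEET2 it was 83.5 and 84.3% (rising) and 89.4% (falling), and for GID1B 91.6 and 91.9% (rising) and 87.5% (falling). The GLN1;4 copies had 95.2 to 96.6%. Whether such copies are equivalent was not tested. SWEET2, GLN1;4, GID1B, ANAC102 and C4H kept both directions without any 1 of the 6 libraries, whereas 5 others lost the call of a copy. ESL1 did so without drought replicate 3 (0.97), and SDI1 without control replicate 1 or 3 (0.99996 each). AIM1 did so without control replicate 2 (0.77) or drought replicate 3 (0.64), and XTH24 without control replicate 2 (0.91) or drought replicate 1 (0.98). The higher MYB96 copy fell short without control replicate 1 (0.91), drought replicate 1 (0.96) or drought replicate 3 (0.91), and the lower one without control replicate 3 (-0.91) or drought replicate 2 (-0.99).

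At some of the widest splits over all loci the copies were numbered next to each other. LTP3, a lipid transfer protein of the cell surface, had BnaA03g09530D at 8.6, 6.51 and 7 FPKM in the control libraries and 410.0, 442 and 438 FPKM in the drought libraries (log2 change 5.69 ± 0.21, adjusted p = 1.1e-09). The next gene model, BnaA03g09540D, went from 12.7, 10.5 and 8.88 FPKM to 0.662, 1.09 and 0.421 FPKM (log2 change -2.77 ± 0.17, adjusted p = 1.2e-07). PR4, a chitin-binding defence protein, showed the same layout, with BnaC03g33880D falling from 47 ± 4.39 to 2.7 ± 0.863 FPKM and BnaC03g33890D rising from 4.61 ± 0.491 to 15 ± 1.61 FPKM. The methyltransferase locus AT5G04380 had BnaA10g25790D rising from 63.1 ± 4.75 to 179 ± 5.91 FPKM and BnaA10g25810D falling from 168 ± 1.51 to 14.5 ± 0.845 FPKM. SRO5, a relative of the stress regulator RCD1, rose in 2 copies, and its copy BnaAnng34290D fell from 23.2 ± 2.7 to 1.21 ± 0.211 FPKM. At AT3G57020, of the calcium-dependent phosphotriesterase superfamily, 5 copies rose, led by BnaC04g39030D from 3.06 ± 0.276 to 61.1 ± 1.81 FPKM, and BnaA09g36360D fell from 37 ± 0.736 to 12.6 ± 1.04 FPKM.

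**Figure D5:**
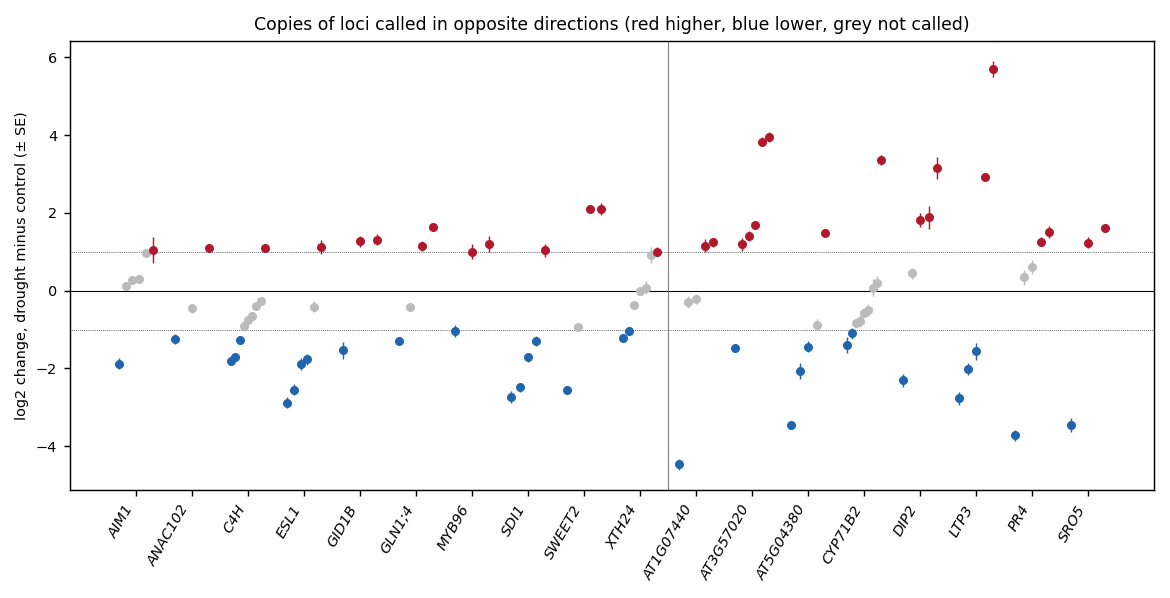
Log2 change ± SE, drought minus control, on the log2(FPKM + 1) scale, of each tested copy of loci whose copies were called in opposite directions. Red points are copies called higher, blue points copies called lower and grey points copies not called. At each locus at least 1 copy was called higher and at least 1 lower.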

How the data were processed

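Leaf messenger RNA was sequenced, and the authors deposited 1 table for the Brassica napus libraries. Its columns were assigned to the Brassica napus samples by the gene models and the material code, since the column names would fit both species. Its values are treated as FPKM as deposited. The unit was inferred from the values, since multiplying by coding length gave whole reads for 99.4 to 99.5% of values in each library (tolerance 0.01), and RPKM would look the same. The percent identity to the Arabidopsis match is also the authors' deposited value. Reads were aligned with HISAT2, per the submitters' processing notes, with the version, genome build, annotation and counter not given in the sources used here.

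Genes that reached 1 FPKM in 3 or more of the 6 libraries were fitted on log2(FPKM + 1) with limma 3.58.1 in R 4.3.3, with trend and robust moderation, over 9 libraries (control, drought and heat). The drought minus control contrast was tested 2-sided with Benjamini-Hochberg adjustment over all 40580 genes, and every adjusted p is from this fit. A log2(FPKM + 1) change understates that of low genes. A self-test on simulated data was run after the fits, and its outcome is not given here. Python 3.11.15 with pandas 2.3.3, NumPy 2.4.6 and Matplotlib 3.10.9 made the tables and plots.

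The members and lists were chosen with earlier results of these data known, and 19 families were added after the table was seen, since it carries 1 InterPro entry per gene. Named were the 5 largest rises and falls of each class at 10 FPKM or more with no overlap, up to 4 called members of each list by adjusted p, the 8 loci with the widest opposite copies, the 8 loci with every one of at least 4 copies moving together, and further copies of those loci. Loci named only for a copy count lie outside that rule and were chosen after their values were seen. Alternatives covered scaling, pseudocount, filter, moderation, the libraries fitted, voom on whole reads recovered from the values, copies summed per locus and each library left out. No sequences are shown.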

Additional observations from a re-analysis of the deposited data

How the results depend on the processing

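Of the 450 called genes and copies named, 0 changed direction under the settings that tested them. The filter of 5 FPKM left 77 of them untested and voom 2. Of the 371 tested under every setting, 350 kept the call in all of them. Of the 450, 31 lost it without 1 of the 6 libraries. Without each library in turn, genes called higher numbered 2234 to 2319 and lower 2980 to 3082, loci with opposite copies 90 to 98, loci with every copy moving together 624 to 627, and list members higher 140 to 144 and lower 321 to 334. A pseudocount of 0.1 in place of 1 gave 163 loci with opposite copies, voom on whole reads 164 and a filter of 5 FPKM 55. Without a filter 392 loci had every copy moving together. Without the fold limit 8599 genes were higher and 11423 lower, 1016 loci had opposite copies and 2668 every copy moving together, and 404 list members were higher and 772 lower. Summing the copies of a locus gave 822 higher and 1179 lower loci. The causes of these shifts were not tested, beyond the different number of features that the filters and sums leave. TMM factors gave 2504 higher and 2757 lower genes. Deviations of same-numbered control and drought libraries correlated at -0.0192, -0.00174 and -0.0151, so no shared effect of the replicate number was seen. With 3 libraries per group this cannot show whether the samples were paired. A fit with the replicate number as a block gave 2253 higher and 3020 lower genes. Depth limits low genes, since 1 read on 1 kb was worth 0.0781 to 0.0821 FPKM.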

Other observations

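Genes outside the lists held some of the largest changes, and those named here were chosen after their values were seen. IMPA-6, an importin that carries proteins into the nucleus, went from 0.338, 0.469 and 0.439 FPKM in the control libraries to 117, 128 and 132 FPKM in the drought libraries for its copy BnaC05g01390D (log2 change 6.48 ± 0.10, adjusted p = 1e-12 by limma). BAG6, a co-chaperone that binds calmodulin, rose from 4.7 ± 0.482 to 531.7 ± 20.7 FPKM in BnaA05g01560D, and EGY3, a plastid membrane protein related to proteases, from 2.66 ± 0.221 to 289.8 ± 4.58 FPKM in BnaA06g12090D. BnaAnng16530D, matched to AT3G10020 with no description in the table, rose from 5.26 ± 1.04 to 697 ± 68.5 FPKM.

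The largest fall of all tested genes was at BnaC04g41400D, matched to AT2G30766 with no description, with 774, 866 and 837 FPKM in the control libraries and 6.27, 6.19 and 10.3 FPKM in the drought libraries (log2 change -6.62 ± 0.14, adjusted p = 1.1e-11 by limma). BnaA10g25140D, matched to AT5G05250 and also without a description, fell from 227 ± 4.12 to 1.59 ± 0.346 FPKM. ADC2, an arginine decarboxylase that starts polyamine synthesis, fell from 96.8 ± 2.17 to 2.59 ± 0.472 FPKM in BnaC01g03720D. The superoxide dismutase family gene of AT3G56350, BnaC08g27300D, fell from 108 ± 4.55 to 1.94 ± 0.512 FPKM, and BnaC06g25130D, a copy of thioredoxin TH8, from 35 ± 6.31 to 0.362 ± 0.184 FPKM.

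Among protein families with at least 10 tested genes, ranked by their share of higher genes, the first 5 were Bax inhibitor 1-related proteins (9 of 15), dormancy and auxin associated proteins (7 of 13), HSP70 chaperones (28 of 52), HSP20-like chaperones (35 of 68) and proteolipid membrane potential modulators (6 of 13). Ranked by their share of lower genes, the pollen allergen entry that pectate lyases carry came first (18 of 22). The entry named CO/COL/TOC1, conserved site, followed (35 of 44). Which proteins carry it was not checked, so its calls are not assigned to the proteins in its name. CCT domain factors, grouped after the annotation was seen, had 3 higher and 3 lower of 47. Then came carboxyl methyltransferases (14 of 18), lipoxygenases (16 of 23) and an entry labelled as protein of unknown function, DUF3474 (8 of 13). Next came tyrosine transaminases (8 of 15), sulfotransferases (13 of 26), barwin-like endoglucanases (26 of 52), mannose-binding lectins (14 of 29) and serine carboxypeptidases (9 of 20). Over all tested genes 5.55% were called higher and 7.44% lower. These families were ranked over all tested genes, so their members can also belong to the lists above. They were picked for their shares, so no test is given.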
